A study of Mus musculus with 6 samples.

Results

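The MAP kinase phosphatases Dusp1, Dusp2, Dusp4, Dusp5, Dusp6, Dusp7, Dusp8, Dusp9, Dusp10 and Dusp16 were followed in mouse embryos that had lost the chromatin remodeller Brg1. The 10 genes were chosen by the difference of Dusp16 between the genotypes on these same arrays, and the other 9 were added as its family. By gene name, 9 of the 10 had probes on the array, 13 probes in all out of 41174 distinct probes, and these 9 were among 15027 genes tested. The level of Dusp5, which had no probe by gene name, is not analysed here. Each of the 13 probes was well above background on all 6 arrays, so each passed the filter on dim probes.

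Gene expression was measured in whole embryos at embryonic day 8.5 with Agilent arrays of 1 colour, and each sample had its own array. The 3 Brg1d/d samples are conditional knockouts of Brg1, and the 3 Brg1fl/fl samples carry the floxed, undeleted gene and served as wild-type controls. Tamoxifen was injected into the dam, per the treatment protocol given for both genotypes, and 250 ng of total RNA was labelled from each sample. The design text calls the samples of a genotype biological replications. The sources used here do not name the Cre driver, the time of injection or the litters, or say if embryos were pooled, so p-values measure the spread between these samples. The comparison asks how the loss of Brg1, the ATPase encoded by Smarca4 that drives SWI/SNF chromatin remodelling complexes, alters gene expression in the early embryo.

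MAP kinases are switched on when a kinase adds phosphates to a threonine and a tyrosine of their activation loop, and MAP kinase phosphatases switch them off by removing both. The family falls into 3 classes. Dusp8, Dusp10 and Dusp16 act mainly on the stress-activated kinases JNK and p38. Dusp1, Dusp2, Dusp4 and Dusp5 are nuclear enzymes induced by growth factors or stress, and Dusp6, Dusp7 and Dusp9 are cytoplasmic or shuttling enzymes that act mainly on ERK. Several of them, Dusp6 above all, are transcribed in response to the kinase they switch off, and in the embryo Dusp6 marks regions of fibroblast growth factor signalling.

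The array carried 3 probes for Dusp16, and the results turn on how these differ. The first 30 of the 60 bases of each are shown, as the scanner files give them, with no base marked, because the probes read different stretches of the gene. All lie on the minus strand of chromosome 6 in the array's own annotation (mm7). Exon and UTR boundaries of that build were not used here.
Dusp16 A_51_P242634: gtacaaaatggtgattttgagcaaaactag
Dusp16 A_52_P492081: ggcatgaagagagcccctttgaaaagcagt
Dusp16 A_52_P374825: ggctcttagccagaataatgacttaagttt
Probe A_51_P242634 is annotated at chr6:134729960-134730000 and probe A_52_P492081 at chr6:134732307-134732366, both for the transcript NM_130447. Probe A_52_P374825 is annotated at chr6:134751853-134751912 for the transcript NM_181320, which is not among the accessions of Dusp16 in the reference table, and it was matched to the gene by symbol. The annotated span of A_51_P242634 is 41 bases for a probe of 60, while the spans of the other two equal the probe length. Among 40844 probes with coordinates, the span was shorter than the probe for 2.14%, equal to it for 85.5% and longer for 12.4%.

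For Dusp8 and Dusp2, the 2 phosphatases called beside the chosen Dusp16, the first 30 bases of the single probe carrying the gene's name are shown in the same way.
Dusp8 A_51_P263246: aaagctctgtttttactgtctggtatttaa
Dusp2 A_52_P399934: gtgggcatctcgctgtaattggtgctgaaa
The Dusp8 probe is annotated at chr7:138508909-138508968 on the minus strand and the Dusp2 probe at chr2:127079047-127079106 on the plus strand, both in mm7. No Dusp16, Dusp8 or Dusp2 probe shared a run of 20 bases with any other probe of the array. The only member probe that did was A_51_P347333 of Dusp4, with 1 other probe. The longest run shared with a probe of another member gene was 6 to 12 bases.

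The promoters of Dusp16 and Dusp8 are shown because these 2 genes of the JNK and p38 class were both higher in Brg1d/d. They are RefSeq sequences of GRCm38.p6, from 250 bases before to 50 bases after the gene's start, read on the minus strand of each chromosome. Capitals mark the CRE motif TGACGTCA and the GC box GGGCGG, each searched on both strands with overlapping matches counted.
Dusp16 promoter, chr6:134792579-134792878: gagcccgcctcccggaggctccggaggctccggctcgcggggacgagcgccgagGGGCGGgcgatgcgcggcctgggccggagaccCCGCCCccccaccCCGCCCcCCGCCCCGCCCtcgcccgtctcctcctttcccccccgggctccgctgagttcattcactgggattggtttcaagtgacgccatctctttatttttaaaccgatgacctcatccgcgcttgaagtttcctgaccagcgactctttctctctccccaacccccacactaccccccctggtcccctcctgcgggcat
Dusp8 promoter, chr7:142095235-142095534: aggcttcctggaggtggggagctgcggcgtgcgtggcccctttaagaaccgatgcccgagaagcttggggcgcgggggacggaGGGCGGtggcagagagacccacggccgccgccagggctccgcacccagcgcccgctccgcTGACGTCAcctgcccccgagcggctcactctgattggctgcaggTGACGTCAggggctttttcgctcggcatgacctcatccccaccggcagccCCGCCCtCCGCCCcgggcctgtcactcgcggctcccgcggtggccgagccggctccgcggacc
The Dusp16 window held 5 GC boxes and no CRE, and the Dusp8 window held 3 GC boxes and 2 CREs. GC boxes also numbered 3 each in Dusp1, Dusp2 and Dusp10, 1 each in Dusp5 and Dusp7, and 0 in Dusp6. Over 32851 promoters of the same length, 35.7% held a GC box and 1.79% a CRE. A promoter was matched for 8 of the 10 members, all but Dusp4 and Dusp9, and the only other one with a CRE was Dusp1, with 1. Neither the AP-1 motif TGACTCA (5.20% of all promoters) nor the ETS motif CCGGAAG (8.86%) was found in any of the 8. The E-box CACGTG (7.15%) was found once in Dusp1 and once in Dusp2. All 8 windows were rich in CpG, with 28 in Dusp16, 34 in Dusp8, a lowest count of 19 in Dusp6 and a highest of 41 in Dusp7, against a median of 7 over all promoters.

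Levels are log2 signals from which the 75th percentile of the same array was subtracted, in the order of replicates 1, 2 and 3, and a difference is Brg1d/d minus control on that log2 scale, with its standard error (SE) and 3 arrays per genotype. A gene with several probes was counted through the probe with the highest mean, levels of different probes were not set against each other, and a limma adjusted p under 0.05 was called as passing. Scan days numbered 3: Brg1d/d 2 was scanned on the day of all 3 controls, and Brg1d/d 1 and 3 on a separate day each. On Brg1d/d 1 and 3 the brightest spike-in control read 12934 and 6905 units, against 208550 to 241121 on the other 4 arrays; the scan day and this difference were not tested as causes of any result. The difference within the shared day, Brg1d/d 2 minus the mean of the 3 controls, is therefore given as the same-day value, and rests on 1 knockout array. It equals the estimate with scan day, or with the spike-in split, as a block. All controls lay on 1 slide and every Brg1d/d array on a different one, so slide and genotype cannot be told apart. The 3 probes of Smarca4 fell by 2.69 ± 0.36, 2.25 ± 0.23 and 2.08 ± 0.29 (SE), with limma adjusted p of 0.0114, 0.00538 and 0.0129 and same-day values of -2.09, -2.52 and -1.67. None of them overlapped between genotypes, as held for 39.3% of all tested probes. The first lost its call without Brg1d/d 3 (adjusted p 0.0554) and the third without Brg1d/d 1 (0.0684), Brg1d/d 3 (0.0582) or control 2 (0.0553). Over 17 alternatives the 3 probes passed in 13, 15 and 12, with adjusted p from 0.00147 to 0.332. Which part of the gene was deleted is not stated in the labels, so the probes check the genotype only as far as its transcript fell.

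The whole-embryo label was set against marker lists, which also show where the genotypes differ in tissue markers. Marker genes counted as higher or lower had a limma adjusted p under 0.05, as did 5.26% and 5.31% of all genes in turn. Summed over 8 genes, heart markers lay at 7.13 to 9.63 in Brg1d/d and 74.5 to 121 in controls, in units of the 75th percentile, and 6 of 8 were lower. Somite and presomitic markers lay at 2.52 to 2.93 against 5.39 to 14.8, with 3 of the 7 genes well above background on all 6 arrays lower. Neural tube markers lay at 5.67 to 6.85 against 9.47 to 25.7, with 3 of 7 such genes lower and 1 higher. Trophoblast markers lay at 293 to 316 in Brg1d/d and 176 to 250 in controls, with 5 of 11 tested genes higher and 1 lower; Gcm1 and Tpbpa were too dim to be tested. Of this sum, the general epithelial keratins Krt8 and Krt18, which did not pass (adjusted p 0.129 and 0.139), made up 260 to 277 in Brg1d/d and 146 to 228 in controls. The other 9 genes summed to 28.7 to 39.2 against 22.5 to 29.3, which overlapped. Called higher were Elf5 (3.23), Eomes (3.07), Tfap2c (2.40), Ascl2 (2.36) and Hand1 (1.41), and Krt7 (-2.32) was called lower. The median difference of the 11 genes was 1.41, with 10 positive, and 9 did not overlap between genotypes, against 41.9% of all genes. Decidual markers lay at 1.03 to 1.26 against 3.39 to 11.3, with 4 of 6 such genes lower, none higher and Pgr too dim to be tested. The 4 were Des (-2.37), Lum (-4.65), Dcn (-2.11) and Col6a3 (-2.24). Lum, with log2 levels of 0.90, 3.25 and 2.51 in controls, made up most of each control sum. Leukocyte markers lay at 0.435 to 0.642 against 0.289 to 0.603, with 0 of 5 such genes called by limma and Ptprc and Itgam too dim to be tested. A called gene in each of the somite, neural tube, decidual and leukocyte lists (Lfng, En1, Prl8a2 and Cd79b in turn) was not well above background on all arrays of 1 genotype and is not counted here. Of these, Lfng, En1 and Cd79b were lower in Brg1d/d, while the decidual gene Prl8a2 was higher. As a description, Prl8a2 read -1.18, -1.59 and -2.52 in Brg1d/d and -7.96, -6.92 and -3.83 in controls. It was well above background on 3 Brg1d/d arrays and 1 control. Control 1 stood apart from controls 2 and 3 in the markers of visceral endoderm and yolk sac (91.8 against 397 and 413) and of primitive red cells (71.1 against 260 and 288). Brg1d/d arrays lay at 310 to 361 and at 65.3 to 79.1 in these lists, where 1 of 12 and 0 of 9 genes were called higher by limma, none lower, and 2 in each had an unadjusted p under 0.05, as did 32.5% of all genes. In a bulk sample, fewer cells of a type and less RNA per cell cannot be told apart, and the part of tissue makeup in the results on the phosphatases was not tested.

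Of the 9 measured phosphatases, Dusp16, which this contrast chose, was higher in Brg1d/d. Of the other 8, Dusp8 was higher, Dusp2 was lower, and 6 did not pass the test. Over all 15027 genes, 5.26% were called higher and 5.31% lower. The levels of Dusp16, Dusp8, Dusp2 and Dusp7 did not overlap between genotypes, 4 of 9 genes, and the same held for 41.9% of all genes. By probe, 4 of 13 passed, 3 higher and 1 lower, against 9.37%, 5.02% and 4.35% of 27854 probes, and 5 of 13 did not overlap, against 39.3%. Dusp16 was selected on this contrast and is counted in these shares, so nothing is read from them. The median difference of the 9 genes was 0.20, against 0.07 over all genes, and the same-day medians were 0.37 and 0.0038. An absolute difference at or above the median of all genes, 0.38, was seen in 5 of the 9. Dusp16 is among the 9, so nothing is read from these medians or this count either.

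**Figure D1:**
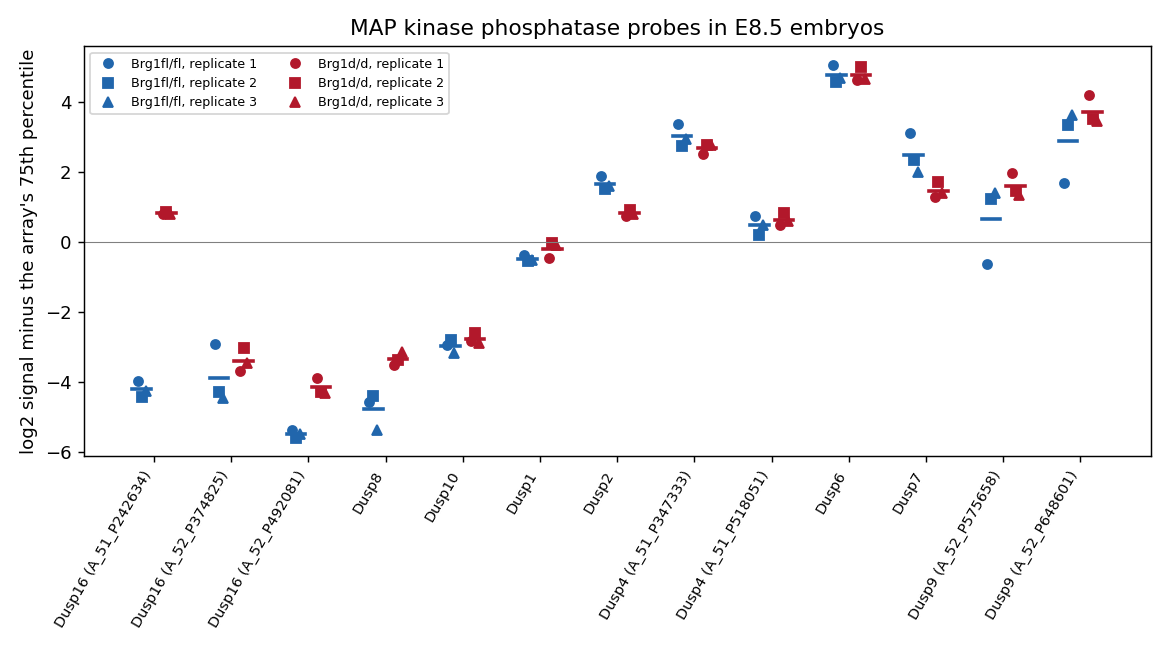
Level of each MAP kinase phosphatase probe on each array (vertical axis, log2 signal relative to the 75th percentile of its array), with Brg1fl/fl in blue, Brg1d/d in red, a symbol for each replicate and a bar at each group's mean. Probe A_51_P242634 of Dusp16 lies between 0.80 and 0.86 in Brg1d/d and between -4.41 and -3.96 in controls, while control 1 lies far below the other controls for both Dusp9 probes.

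Dusp16, which removes phosphates from JNK and p38, gave 3 different readings. Probe A_51_P242634, through which the gene was counted, read 0.80, 0.86 and 0.82 in Brg1d/d and -3.96, -4.41 and -4.25 in controls. Its unscaled signal was 1764 to 2834 units in Brg1d/d and 47.4 to 64.3 in controls. The 3 Brg1d/d arrays were close together (SD 0.032), and all of them lay far above the 3 controls (SD 0.23). The difference was 5.03 ± 0.17 (SE), or 32.8-fold, and the same-day value was 5.07. As this contrast chose the gene, these values are a description and no test is given.

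The second probe of the same transcript, A_52_P492081, read -3.87, -4.27 and -4.31 in Brg1d/d and -5.37, -5.59 and -5.49 in controls. Its levels did not overlap between genotypes, but its difference was 1.33 ± 0.18 (SE), or 2.51-fold, with a same-day value of 1.21. The third probe, A_52_P374825, read -3.70, -3.03 and -3.47 in Brg1d/d and -2.92, -4.27 and -4.46 in controls. Here control 1 lay above all 3 Brg1d/d arrays, and the groups overlapped. Its difference was 0.48 ± 0.43 (SE), with a same-day value of 0.85. It was 0.97 without control 1, 0.20 without control 3, 0.29 without control 2 and 0.30 without Brg1d/d 2. The 32.8-fold difference was read by A_51_P242634 alone.

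Among 6474 genes with at least 2 tested probes, the largest and smallest difference of a gene's probes lay a median of 0.39 apart on the log2 scale. For Dusp16 they lay 4.55 apart, and 1 gene, Islr, had a larger spread, at 4.78; it is named after its value was seen. The probes of Dusp4 lay 0.50 apart and those of Dusp9 0.094 apart. Whether the Dusp16 probes read different transcripts was not tested. Under normexp background correction, the difference of A_51_P242634 was 3.83 and that of A_52_P492081 was 0.43, the lowest values either probe took over 17 alternative settings.

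**Figure D2:**
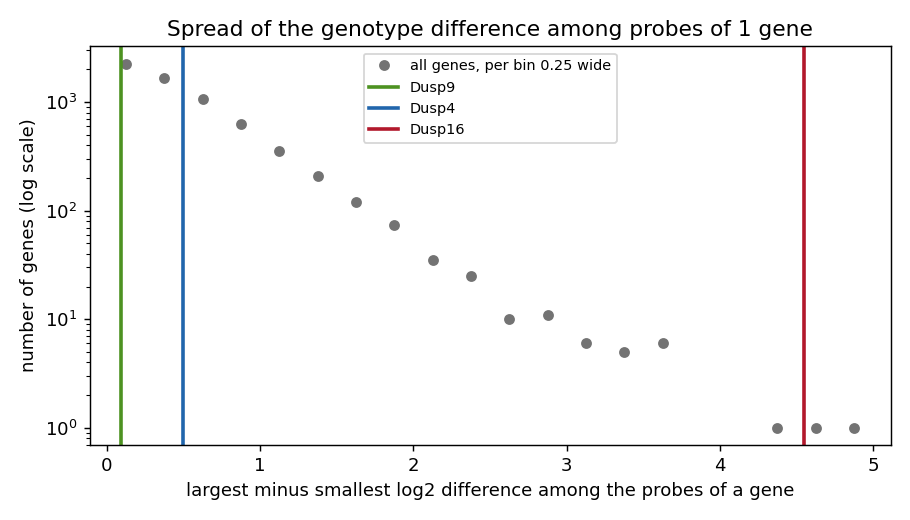
Number of genes (vertical axis, log scale) by the distance between the largest and the smallest genotype difference among the probes of a gene (horizontal axis, log2 scale, points per bin), over 6474 genes with at least 2 tested probes. Coloured lines mark Dusp9 at 0.094, Dusp4 at 0.50 and Dusp16 at 4.55, where few genes lie.

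Dusp8, the second phosphatase of the JNK and p38 class, read -3.51, -3.36 and -3.15 in Brg1d/d and -4.56, -4.40 and -5.36 in controls. Every Brg1d/d array lay above every control, with control 3 the lowest. Dusp8 was 2.70-fold higher, a rise of 1.43 ± 0.28 (SE), at a limma adjusted p of 0.0309 and a same-day value of 1.41. The limma adjusted p was 0.0984 without Brg1d/d 1, 0.119 without Brg1d/d 3 and 0.0722 without control 2. With the spike-in split as a block it was 0.254, and under normexp the difference was 0.54 with an adjusted p of 0.0540. It passed under 9 of 17 alternatives, with adjusted p from 0.0268 to 0.420. A second probe, which the array lists as 5530400B01Rik and the reference table assigns to Dusp8, lies outside the rule for members; its difference was 0.79 ± 0.22 (SE), its adjusted p 0.0729 and its same-day value 0.58, with no overlap.

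Dusp10, the last of this class and known as a regulator of JNK in immune cells, read -2.82, -2.61 and -2.89 in Brg1d/d and -2.95, -2.80 and -3.17 in controls. The groups overlapped, and the difference of 0.20 ± 0.17 (SE) did not pass (limma adjusted p 0.436). Its same-day value was 0.37, and with each array left out the difference lay between 0.10 and 0.29. Within the class, the differences were 5.03 for Dusp16, 1.43 for Dusp8 and 0.20 for Dusp10, with a positive sign that held under quantile and median scaling. The value of Dusp16 was read by probe A_51_P242634 alone, and this contrast chose that gene, so nothing is read about the class. Outside the class, Dusp1 and Dusp9 also had positive differences, of 0.28 and 0.83, while those of Dusp2, Dusp4, Dusp6 and Dusp7 were negative.

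Of the nuclear, inducible phosphatases, Dusp2, first known from activated lymphocytes, fell. It read 0.76, 0.93 and 0.80 in Brg1d/d and 1.90, 1.51 and 1.60 in controls, without overlap. It was 1.79-fold lower, having dropped by 0.84 ± 0.17 (SE), at a limma adjusted p of 0.0321 and a same-day value of -0.74. The limma adjusted p was 0.115 without Brg1d/d 1, 0.127 without Brg1d/d 3, 0.103 without control 2 and 0.0707 without control 3, and 0.273 with the spike-in split as a block. It passed under 9 of 17 alternatives, with adjusted p from 0.0154 to 0.442.

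Dusp1, an immediate early gene whose product acts on p38, JNK and ERK, read -0.45, -0.03 and -0.07 in Brg1d/d and -0.37, -0.52 and -0.50 in controls. Brg1d/d 1 lay among the controls and the other two Brg1d/d arrays above them. The difference of 0.28 ± 0.17 (SE) did not pass (limma adjusted p 0.293), and the same-day value was 0.44.

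Dusp4, which acts on ERK and JNK in the nucleus, had 2 probes with differences of opposite sign, neither of which passed. Probe A_51_P347333, through which the gene was counted, read 2.54, 2.77 and 2.78 in Brg1d/d and 3.40, 2.75 and 2.96 in controls, a difference of -0.33 ± 0.21 (SE; limma adjusted p 0.305). Probe A_51_P518051 read 0.49, 0.85 and 0.62 against 0.76, 0.20 and 0.50, a difference of 0.16 ± 0.20 (SE; limma adjusted p 0.598). Control 1 was the highest control for both, and the groups overlapped. Without control 1 the differences were -0.15 and 0.30, and without control 2 they were -0.48 and 0.020. The same-day values were -0.26 and 0.36.

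Dusp6, the ERK-selective phosphatase that ERK signalling itself induces, read 4.63, 5.02 and 4.68 in Brg1d/d and 5.07, 4.58 and 4.71 in controls. The 2 ranges covered each other almost fully. The difference was -0.012 ± 0.20 (SE) at an adjusted p of 0.974 by limma, and the same-day value was 0.23. Its sign turned under normexp and under 5 other settings. An SE of 0.20 limits what a difference this small can show.

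Dusp7, a relative of Dusp6 with the same preference for ERK, read 1.28, 1.73 and 1.42 in Brg1d/d and 3.13, 2.35 and 2.02 in controls. All 3 Brg1d/d arrays lay below all 3 controls, with control 1 the highest. The difference of -1.02 ± 0.31 (SE) did not pass (limma adjusted p 0.0837), and the same-day value was -0.77. Control 1 lay 0.95 above the mean of the other controls, and the markers of neural tube and of somites lay a median of 0.97 and 0.93 above them in the same sample. The same median was 0.63 for heart, -2.60 for visceral endoderm and yolk sac and -3.13 for primitive red cells. The part of these tissues in the level of Dusp7 was not tested.

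Dusp9, an ERK phosphatase needed in the mouse placenta, had 2 probes that moved alike from array to array. Probe A_52_P648601, through which the gene was counted, read 4.21, 3.53 and 3.48 in Brg1d/d and 1.71, 3.36 and 3.65 in controls. Probe A_52_P575658 read 1.99, 1.46 and 1.37 against -0.61, 1.23 and 1.41. In both, controls 2 and 3 lay close to Brg1d/d 2 and 3, while control 1 lay 1.80 and 1.92 below the other controls.

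The differences of Dusp9 were 0.83 ± 0.52 and 0.93 ± 0.54 (SE), with limma adjusted p of 0.305 and 0.274, and same-day values of 0.63 and 0.78. Without control 1 they were 0.24 and 0.29, and without control 3 they were 1.21 and 1.29. In control 1, the markers of visceral endoderm and yolk sac lay a median of 2.60 and those of primitive red cells a median of 3.13 below controls 2 and 3. Their part in the level of Dusp9 was not tested.

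**Figure D3:**
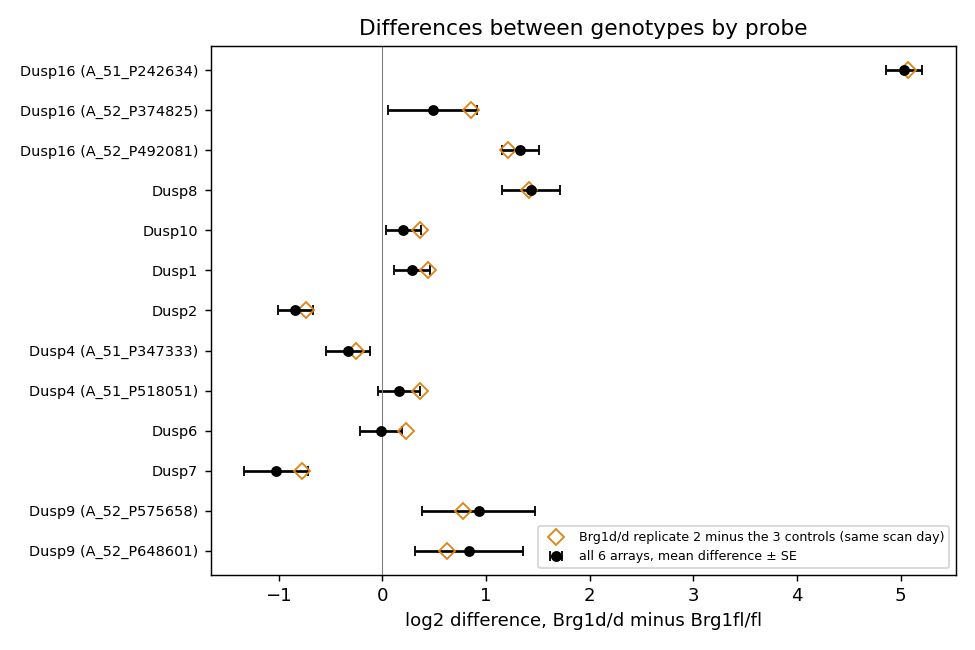
Difference between genotypes for each probe (horizontal axis, log2 scale, Brg1d/d minus Brg1fl/fl), with black points and bars for the mean and SE over 6 arrays and open diamonds for the same-day value from Brg1d/d 2 alone. The first Dusp16 probe stands at 5.03 and all other probes between -1.02 and 1.43.

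Leaving aside Dusp16, which this contrast chose, limma called 0 of the other 8 phosphatases with the spike-in split as a block, where 0.812% of all genes were called; 2 of the 8 had an unadjusted p under 0.05. When scan day was the block, 0 of 15027 genes were called by limma, or 0%. An unadjusted p under 0.05 was then seen for 2 of the 8, against 12% of all genes. The 5 genes whose levels followed probe A_51_P242634 most closely over the 6 arrays, among 14193 compared by Pearson correlation, were Mief2, Rasl10a, Irf1, Elf5 and Calcr, with r from 0.998 to 0.999. An r above 0.99 was reached by 39 genes and one above 0.95 by 369; the points are 6 arrays of 2 genotypes. Among these 5, Elf5, a transcription factor of trophoblast, differed by 3.23, Rasl10a by 2.42, Calcr, the calcitonin receptor, by 2.24, and Irf1, an interferon-regulated factor, by 1.37. Mief2, a mitochondrial fission adaptor, differed by 0.54. Against the same probe, r was 0.91 for Dusp8, 0.015 for Dusp6 and -0.94 for Dusp2.

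The kinases that the phosphatases act on were taken as lists by function. Of 26 tested genes of the ERK module, limma called 0, against 10.6% of all genes, and 1 was at an unadjusted p under 0.05, against 32.5%. That was Rps6ka2, a kinase downstream of ERK, which read -2.34, -2.92 and -2.44 in Brg1d/d and -1.53, -1.94 and -2.04 in controls, a difference of -0.73 ± 0.23 (SE; limma adjusted p 0.0914). The median difference of the list was 0.12.

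Of the 36 genes of the JNK and p38 module, 5 rose and 2 fell, where 5.26% and 5.31% of all genes did, and the median difference was 0.08. By limma, 16 of the 36 were at an unadjusted p under 0.05, against 32.5% of all genes. Mapkapk3, a kinase switched on by p38, read -0.88, -1.40 and -1.06 in Brg1d/d and -3.27, -3.14 and -3.22 in controls, and rose by 2.10 ± 0.18 (SE; limma adjusted p 0.00349; same-day value 1.81). Mapk8ip2, a scaffold of the JNK cascade, read 0.16, -0.23 and -0.031 against -1.72, -2.29 and -1.91, and rose by 1.94 ± 0.21 (SE; limma adjusted p 0.00584; same-day value 1.74). Gadd45b, a stress-induced activator of the kinase upstream of p38 and JNK, read 0.64, 0.39 and 0.29 against -1.13, -0.55 and -1.07. It rose by 1.36 ± 0.21 (SE; limma adjusted p 0.0173; same-day value 1.31), and its adjusted p was 0.0790 without Brg1d/d 1 and 0.0651 without Brg1d/d 3, within a range of 0.00671 to 0.337 over 17 alternatives, of which it passed 12. None of the 3 overlapped between genotypes, as held for 41.9% of all genes. The other two that rose, named after their values were seen, were the upstream kinases Map3k12, by 0.99, and Map3k3, by 0.64.

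The 2 genes of this module that fell were Mapk12, the p38 kinase of skeletal muscle, and the upstream kinase Map3k6. Mapk12 read 0.40, -0.44 and 0.18 in Brg1d/d and 2.05, 1.30 and 1.10 in controls, and fell by 1.44 ± 0.33 (SE; limma adjusted p 0.0447; same-day value -1.92). Map3k6 read -2.70, -2.92 and -2.86 against -1.72, -2.08 and -2.11, and fell by 0.86 ± 0.17 (SE; limma adjusted p 0.0336; same-day value -0.95). Both calls were lost without any 1 of Brg1d/d 1, Brg1d/d 3, control 2 or control 3, with adjusted p from 0.0605 to 0.131, and that of Mapk12 also without Brg1d/d 2 (0.0584). Over 17 alternatives Mapk12 passed in 7 and Map3k6 in 9, with adjusted p from 0.0201 to 0.314 and from 0.0240 to 0.373. The JNK and p38 kinases Mapk8 and Mapk14 differed by 0.031 ± 0.16 and 0.29 ± 0.15 (SE), with limma adjusted p of 0.910 and 0.235.

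Of 24 genes that respond to ERK, 23 were well above background on all 6 arrays; 1 of these rose and 1 fell, where 10.6% of all genes were called either way. The median difference of the 23 was 0.23, against 0.07 over all genes. Fos, an immediate early gene of the AP-1 family, read -3.05, -2.78 and -3.16 in Brg1d/d and -4.73, -4.78 and -4.63 in controls. It rose by 1.72 ± 0.16 (SE; limma adjusted p 0.00447; same-day value 1.94). Fosl1, of the same family, read -3.92, -4.76 and -4.48 against -6.84, -6.27 and -5.69, and was well above background on 2 of the 3 controls. As it entered the test through Brg1d/d, where it was higher, its levels are a description and it is not counted. Flrt3, a partner of the fibroblast growth factor receptor, read 2.16, 3.01 and 2.56 against 3.82, 3.70 and 3.47 and fell by 1.08 ± 0.25 (SE; limma adjusted p 0.0451; same-day value -0.65). That call was lost without any 1 array except Brg1d/d 2, with adjusted p from 0.0661 to 0.159, and Flrt3 passed under 7 of 17 alternatives (0.0221 to 0.473). The other 21 genes did not pass, among them the feedback inhibitor Spry2 at 0.23 ± 0.22 and the ETS factors Etv4 at 0.53 ± 0.36 and Etv5 at 0.60 ± 0.25 (SE).

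Of 19 other phosphatases of MAP kinases and of the wider dual-specificity group, 1 fell and none rose, where 5.31% and 5.26% of all genes did, and 4 were at an unadjusted p under 0.05, against 32.5% of all genes. Dusp27, a catalytically inactive member found in muscle, read -4.86, -5.50 and -4.76 in Brg1d/d and -1.68, -1.89 and -2.17 in controls, without overlap. It was 8.74-fold lower, having dropped by 3.13 ± 0.25 (SE), at a limma adjusted p of 0.00298 and a same-day value of -3.59. Its call and those of Mapkapk3, Mapk8ip2 and Fos were kept without any 1 array. With the spike-in split as a block, the adjusted p was 0.0162 for Dusp27, 0.0396 for Mapkapk3 and 0.0335 for Fos, and 0.0878 for Mapk8ip2. Dusp27, Mapkapk3 and Fos each passed under 16 of 17 alternatives and Mapk8ip2 under 15, with highest adjusted p of 0.0986, 0.151, 0.142 and 0.237, all with scan day as a block. Heart markers were lower in Brg1d/d in 6 of 8 genes, against 5.31% of all genes, beside the lower levels of the muscle genes Dusp27 and Mapk12. The part of the heart markers in these levels was not tested.

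**Figure D4:**
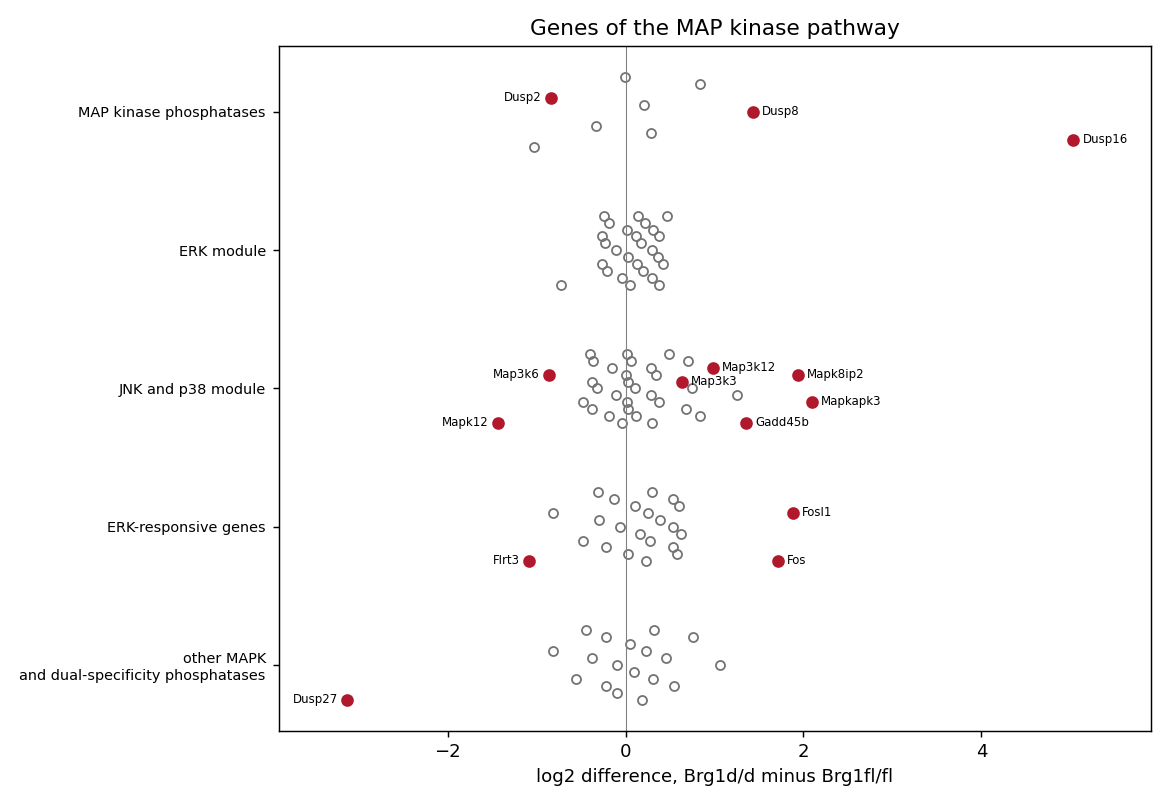
Difference between genotypes (horizontal axis, log2 scale, Brg1d/d minus Brg1fl/fl) for each gene of the MAP kinase phosphatases and the 4 pathway lists (vertical axis, spread only for legibility). Filled red points have a limma adjusted p under 0.05 and are named, and open points do not; Dusp16, which this contrast chose, stands at 5.03 and Dusp27 at -3.13, Fosl1 was well above background on 2 of 3 controls, and the ERK module has no filled point.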

How the data were processed

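RNA of 6 whole-embryo samples was measured on 1-colour arrays. The deposited scanner files hold intensity values that the authors made with Agilent Feature Extraction 9.5, per the submitters' processing notes. Per the file headers the processed intensity is background-subtracted and detrended, and not scaled between arrays; flags mark outliers, saturation and signal well above background. Control and outlier spots were left out, and log2 values of replicate spots averaged. The 75th percentile of each array, 958 to 1627 units, was subtracted. A probe was tested if its signal was well above background on each of the 3 arrays of either genotype. Probes were named through a RefSeq table of GRCm38.p6 (22951 by accession, 6659 by symbol, 3109 by synonym) and 8455 kept the array's name. The genotypes were compared with limma 3.58.1 in R 4.3.3 (lmFit and eBayes, two-sided), with Benjamini-Hochberg adjustment over 27854 probes. The fit was tested on data simulated with independent noise. These held no effect of slide, scan day or spike-in split, so that test cannot speak to those.

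The members and lists were chosen with earlier results of these data known. Genes named are every member and Smarca4 probe, up to 3 genes per direction and pathway list with the largest difference among those that passed, or else the one with the smallest p, and the 5 most like Dusp16. Alternatives were median and quantile scaling, normexp with an offset of 50, 2 other filters, the deposited series table, a trended robust variance, slide, scan day, replicate number and the spike-in split as blocks, the mean of a gene's probes, a 2-fold threshold and each array left out; the spike-in split was chosen after seeing the data. Same-numbered samples did not deviate together (r of -0.13, 0.081 and 0.091), so numbers were not taken as pairs. Python 3.11.15 and matplotlib 3.10.9 were used. Some results are not reported here.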

Additional observations from a re-analysis of the deposited data

How the results depend on the processing

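The sign of every member probe held under all 17 alternatives computed for it except that of Dusp6, which was 0.037 under normexp, 0.23 with scan day and with the spike-in split as a block, 0.060 without Brg1d/d 1, 0.038 without Brg1d/d 3 and 0.13 without control 1, within -0.13 to 0.13 over the arrays left out. Several alternatives could not change a sign, as they leave the difference of a probe as it was. These were the other filters, the deposited series table, the trended robust variance, and slide or replicate number as a block. The series table equals the scanner values, so its fit repeats the main one. Scan day and the spike-in split as blocks share 1 estimate. The main counts were 2 phosphatases higher and 1 lower, 5 and 2 in the JNK and p38 module, 2 (with Fosl1) and 1 among ERK-responsive genes, 0 and 0 in the ERK module, and 0 and 1 among the other phosphatases. With scan day as a block they were 0 in all. With the replicate block they were 1 and 0 for the phosphatases, 2 and 0 for the JNK and p38 module and 1 and 0 for ERK-responsive genes, and with the spike-in split 1 and 0 in each of these 3 lists. Without a filter they were 1 and 0 for the phosphatases and for ERK-responsive genes, and 0 genes of the JNK and p38 module were lower. Under normexp 1 phosphatase and 1 ERK-responsive gene were higher; quantile scaling and the filter on all 6 arrays also gave 1 higher ERK-responsive gene. With slide as a random block, 1 gene of the JNK and p38 module and 0 ERK-responsive genes were lower. By the mean of a gene's probes, 1 gene of the ERK module and 1 other phosphatase were higher and 1 gene of the JNK and p38 module lower. At 2-fold, 0 phosphatases were lower, and 3 genes of the JNK and p38 module were higher and 1 lower. The folds of Dusp2 (1.79), Map3k12 (1.98), Map3k3 (1.56) and Map3k6 (1.81) lie under that threshold. The filter on all 6 arrays leaves out Fosl1. The causes of the other changes were not tested. Leaving out each array in turn gave 1 to 2 phosphatases higher and 0 to 1 lower, 2 to 7 and 0 to 2 in the JNK and p38 module, 1 to 4 and 0 to 1 among ERK-responsive genes, 0 and 0 in the ERK module, and 0 to 2 and 1 among the other phosphatases. Dusp16, which this contrast chose, is counted among the MAP kinase phosphatases here. Where 1 of them was given as higher, that 1 was Dusp16, so nothing is read from these counts. Over all probes, limma called 2610, 909 with the replicate block, 170 with the spike-in split, 1125 without a filter, and 473 to 4778 with each array left out. The number of arrays, 3 per genotype, limits every difference.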
